A study of Mus musculus with 36 samples.

Results

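The keratins Krt8, Krt18 and Krt19, the claudin Cldn6 and the small proline-rich protein Sprr2b were followed in mouse embryonic stem cells leaving the self-renewing state. Members were all probe sets annotated to one of these 5 genes on either of a pair of Affymetrix arrays (chips A and B), which gave 8 probe sets of 24833 that were not controls. The cells carried an Oct4:eGFP reporter, so that green fluorescence reported activity of Oct4 (Pou5f1), a transcription factor of the pluripotent state, and all groups were plated on gelatin after routine culture on mitomycin-treated embryonic fibroblasts. Control cells were kept in 1000 U/mL leukaemia inhibitory factor (LIF, the cytokine that sustains mouse stem cells) and collected 2 days after plating. LIF was withdrawn from the remaining cultures, either alone, with collection after 1, 3 or 5 days, or together with addition of retinoic acid (RA, 0.1 uM), with collection after 1 or 2 days. Flow sorting gave high, medium and low eGFP gates, and RNA from the sorted gates was amplified in repeated cycles and put on both arrays. Control had no low-gate library and day 2 with RA had no high-gate library. There were 3 control libraries, 4, 3 and 3 libraries at days 1, 3 and 5 without LIF, and 3 and 2 libraries at days 1 and 2 with RA, 18 in all. The labels name no separate cultures, 14 of the 16 combinations of arm and gate held 1 library, and gates served as the replicates of an arm, so p-values measure the spread between these libraries, which may be technical. Only 1 reporter line was used, control cells were sampled at 1 time after plating, and plating density was set lower for longer differentiation, so that loss of LIF, time in culture and density cannot be told apart.

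Krt8, a type II keratin, pairs with the type I keratins Krt18 and Krt19 to form the intermediate filaments of simple epithelia, which include the first epithelia of the embryo such as trophectoderm and primitive endoderm. Claudins are membrane proteins of the tight junction, the seal between neighbouring epithelial cells, and Cldn6 is known as a claudin of embryonic epithelia. Small proline-rich proteins are cross-linked into the cornified envelope of stratified epithelia, and genes of the Sprr2 family are also switched on in simple epithelia such as gut and uterus.

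The promoters are shown because Krt8 and Krt18 moved together while Sprr2b followed another course. RefSeq (build GRCm38.p6) gave the 300 bases around the start of 4 of the 5 genes, 250 before it and 50 after it; Krt19 had no entry. Krt8 and Krt18 are neighbours on chromosome 15 with no other protein-coding gene between them, and the Sprr2 family lies on chromosome 3 as a block of 10 protein-coding genes with no unrelated protein-coding gene inside it. Capitals mark any of 5 motifs searched on both strands: TGANTCA (AP-1), TATAAA (which binds the general transcription factors in many promoters), AGGTCA (the core bound by nuclear receptors, RA receptors among them), TTCNNNGAA (STAT factors, which act downstream of LIF) and CAGGTG (the E-box bound by Snail and Zeb repressors).
Krt8 (chr15:102004293-102004592, minus strand): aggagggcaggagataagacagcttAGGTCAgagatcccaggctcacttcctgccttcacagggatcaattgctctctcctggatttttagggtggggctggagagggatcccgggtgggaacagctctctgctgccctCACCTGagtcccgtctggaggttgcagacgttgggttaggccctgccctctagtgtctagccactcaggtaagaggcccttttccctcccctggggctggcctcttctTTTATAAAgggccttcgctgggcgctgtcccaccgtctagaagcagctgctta
Krt18 (chr15:102027966-102028265, plus strand): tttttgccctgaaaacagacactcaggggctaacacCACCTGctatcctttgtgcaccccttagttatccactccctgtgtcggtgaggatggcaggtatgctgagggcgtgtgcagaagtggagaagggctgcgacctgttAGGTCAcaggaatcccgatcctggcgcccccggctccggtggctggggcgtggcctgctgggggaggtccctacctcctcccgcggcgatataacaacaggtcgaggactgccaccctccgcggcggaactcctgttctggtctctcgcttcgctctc
Cldn6 (chr17:23679115-23679414, plus strand): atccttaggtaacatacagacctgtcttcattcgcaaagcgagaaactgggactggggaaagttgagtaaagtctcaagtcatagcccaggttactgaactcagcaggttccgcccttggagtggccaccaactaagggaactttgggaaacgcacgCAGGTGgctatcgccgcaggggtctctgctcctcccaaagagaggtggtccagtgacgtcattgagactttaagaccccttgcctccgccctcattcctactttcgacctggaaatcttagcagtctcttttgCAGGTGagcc
Sprr2b (chr3:92316455-92316754, plus strand): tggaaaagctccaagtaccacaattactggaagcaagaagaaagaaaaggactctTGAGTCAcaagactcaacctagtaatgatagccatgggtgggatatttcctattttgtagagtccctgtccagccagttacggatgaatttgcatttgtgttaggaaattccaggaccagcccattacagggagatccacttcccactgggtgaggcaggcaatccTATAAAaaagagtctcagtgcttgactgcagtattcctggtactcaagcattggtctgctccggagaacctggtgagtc
AGGTCA was found once each in the Krt8 and Krt18 windows, 225 and 108 bases before the start, and in 16.3% of all 32851 promoters of this length. CAGGTG or its complement was found once in Krt8, once in Krt18 and at 2 places in Cldn6, and in 20.2% of all promoters. The Sprr2b window held TGAGTCA, a match to TGANTCA, 195 bases before the start (7.81% of promoters have one) and a TATAAA 29 bases before it. TATAAA, present in 13.6% of promoters, also matched in Krt8, where the hits on opposite strands overlap at the annotated start itself, and the Krt18 and Cldn6 windows had no match. TTCNNNGAA, present in 8.30% of promoters, matched in none of the 4 windows. These matches describe letters, not binding.

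Signals were the arrays' MAS5 values, scaled so that each array's 2% trimmed mean lay between 150.04 and 150.10. Differences are log2 values from a limma fit over all 18 libraries with arm and gate as terms, on the brightest 60% of probe sets, and a call is an adjusted p under 0.05 over all probe sets of the chip. Of the members, 6 probe sets passed that brightness filter and 2 did not, a second set each for Krt18 and Krt19. Pou5f1 (103075_at), the gene behind the reporter, had signals of 2388 to 2823 in control, 1133 to 2523 at day 1, 1247 to 1662 at day 3 and 527 to 901 at day 5 without LIF. It had 1057 to 1747 at day 1 and 284 to 602 at day 2 with RA. The arrays were scanned on 4 days: scan 1 held 1 control and 1 day 1 library without LIF, scan 2 day 3 without LIF and day 1 with RA, scan 3 the other day 1 libraries, day 5 and day 2 with RA, and scan 4 the other controls. One library stood apart, replicate 2 of the high gate by its label, from day 1 without LIF. Its run record lacks the mark for absence of RA that the other day 1 libraries without LIF carry, as does that of the control on the same scan day. The library that stood apart had the highest signals of its arm for all 6 tested probe sets. The control on the same scan day was the highest control for Krt8, Sprr2b and both Cldn6 sets, but not for Krt18 and Krt19. The ratio of gap to range of the library that stood apart was 0.585 for Krt8, 0.614 for Krt18 and 0.461 for Krt19. These lie under the critical value of Dixon's test for 4 libraries, so this library is set apart by its record and rank, not by that test. Results on day 1 without LIF are given with and without it. Without it, 5, 6 and 3 member probe sets passed at day 3, at day 5 and at day 2 with RA against control, as many as with it. A sign of RNA quality also moved with the arms: the log2 ratio of 3' to 5' actin signal on chip A was 1.10 to 1.34 in control, 0.977 to 1.15 at day 1, 0.809 to 1.14 at day 3 and 0.827 to 0.937 at day 5 without LIF. It was 1.26 to 1.45 at day 1 and 0.788 to 0.863 at day 2 with RA. The part of RNA quality in the members' changes was not tested.

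Signals of Krt8, Krt18 and Krt19 were low with LIF, did not pass the test at day 1, were 2.35- to 4.54-fold above control at day 3 and 18.2- to 22.5-fold above it at day 5 without LIF. For Krt8 (101009_at), the control libraries gave 74.0 and 128 (high gate) and 93.6 (medium). At day 1 without LIF the signals were 77.3 and 307 (high), 113 (medium) and 138 (low), and at day 3 they were 288, 460.4 and 437 for high, medium and low. At day 5 they reached 2535, 2201 and 2417 in the same order of gates. Day 1 overlapped control, the library with 307 being the one that stood apart, whereas every day 3 library lay above every control and every day 5 library lay above all others. Fewer cells of a type and less RNA per cell cannot be told apart in such sorted bulk samples. The fitted difference from control was 0.47 ± 0.40 (SE, n = 4 and 3) at day 1, 1.88 ± 0.43 at day 3 (adjusted p = 0.0106, limma) and 4.49 ± 0.43 at day 5 (adjusted p = 3.95e-06, limma). Without the library that stood apart the day 1 difference was -0.03 ± 0.28. Folds are those of the signal plus a constant (4 for chip A, 7 for chip B), and so understate changes of dim probe sets.

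**Figure D1:**
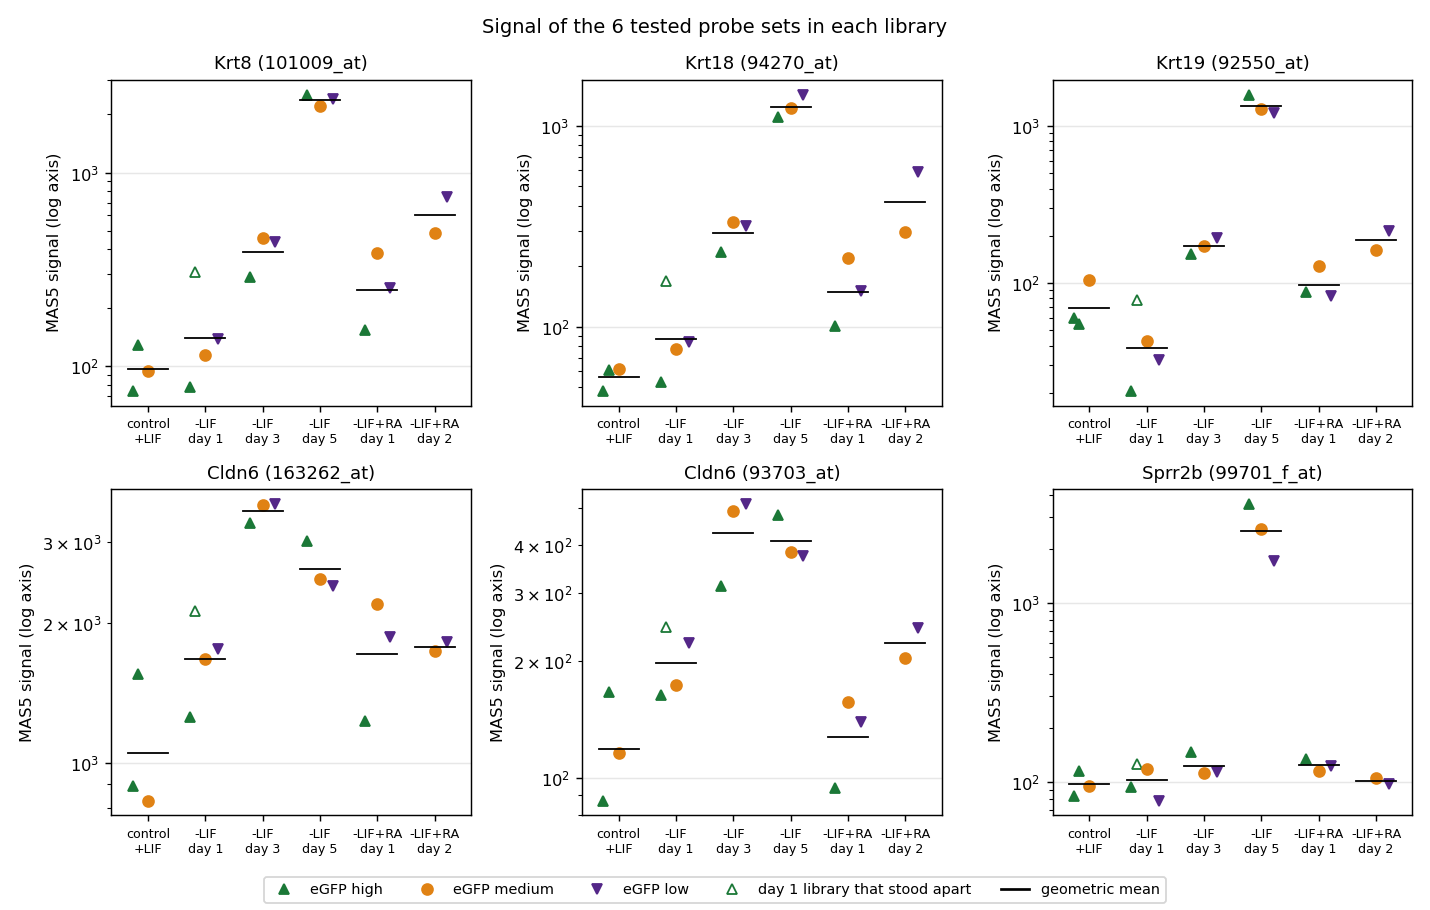
MAS5 signal (log axis) of the 6 tested probe sets in each of the 18 libraries, by arm, with marker shape and colour for the eGFP gate, bars at the geometric mean of the arm, and an open marker for the day 1 library that stood apart. All 3 keratins step up at day 3 and again at day 5 without LIF, and Sprr2b leaves its range of 78.8 to 146 at day 5 alone. The mean of Cldn6 is highest at day 3, where the chip A set overlaps day 5.

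Krt18 (94270_at), the usual partner of Krt8, gave 48.0, 60.9 and 61.4 in the control libraries and 53.2, 169, 77.2 and 83.8 at day 1, the second of these in the library that stood apart. At day 3 it gave 236, 333 and 316 in the high, medium and low gates, and at day 5 it gave 1104, 1225 and 1429. As with Krt8, day 1 overlapped control while days 3 and 5 overlapped neither control nor each other. The difference from control was 0.53 ± 0.33 at day 1 (0.11 ± 0.23 without the library that stood apart), 2.18 ± 0.36 at day 3 (adjusted p = 0.00174) and 4.26 ± 0.36 at day 5 (adjusted p = 1.46e-06). Krt8 and Krt18 followed each other across the 18 libraries with a Pearson r of 0.99 on the log2 scale, a description only, since the libraries share arms and scan days. The second Krt18 set (162191_at) stayed between 0.298 and 8.21 in every library, near the floor. Its difference at day 5 pointed the same way but did not pass the test in a fit without the filter (0.77 ± 0.28, adjusted p = 0.0741, limma). A set this dim can say little on the change of Krt18.

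Krt19 (92550_at), a type I keratin of simple and ductal epithelia, gave 59.6, 54.5 and 105 in control. At day 1 without LIF it gave 20.5 and 77.9 in the high gate, 43.0 in the medium gate and 32.4 in the low gate, the 77.9 again in the library that stood apart. At day 3 the signals were 152, 171 and 192 and at day 5 they were 1587, 1277 and 1214 for high, medium and low. Krt19 therefore had its lowest libraries at day 1, not in control, and the day 3 and day 5 libraries overlapped no other arm without RA. Its difference from control was -0.77 ± 0.33 at day 1 (adjusted p = 0.232), 1.23 ± 0.36 at day 3 (adjusted p = 0.0330) and 4.18 ± 0.36 at day 5 (adjusted p = 1.46e-06). Without the library that stood apart the day 1 difference was -1.17 ± 0.24 (adjusted p = 0.0164, limma), and with scan day as a fixed block its sign turned, to 0.48. The second Krt19 set (102121_f_at), below the filter, gave 1.05 to 1.95 at day 1, 3.42 to 7.70 in control and 85.5 to 154 at day 5. In a fit without the filter it was 3.58 ± 0.42 higher at day 5 than in control (adjusted p = 4.95e-05).

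Cldn6, the embryonic claudin, was 3.28- to 3.34-fold above control at day 3 and passed no test of a further change by day 5. On chip A (93703_at) the control libraries gave 87.3, 166 and 116, and day 1 without LIF gave 163, 246, 174 and 223. The day 3 signals were 314, 490.1 and 510.5 and the day 5 signals were 477, 384 and 375 in the high, medium and low gates. Days 3 and 5 overlapped each other and lay above every control and day 1 library. The differences from control were 0.67 ± 0.24 at day 1 (adjusted p = 0.158), 1.74 ± 0.26 at day 3 (adjusted p = 0.00102) and 1.67 ± 0.26 at day 5 (adjusted p = 0.000241). On chip B (163262_at) the signals were 894, 1555 and 830.3 in control, and 1255, 2131, 1676 and 1765 at day 1. They were 3285, 3605 and 3615 at day 3 and 3008, 2489.8 and 2413 at day 5, so here the day 5 libraries lay below all those of day 3. The differences from control were 0.66 ± 0.25 at day 1 (adjusted p = 0.226), 1.71 ± 0.28 at day 3 (adjusted p = 0.00261) and 1.30 ± 0.28 at day 5 (adjusted p = 0.00416). The day 1 differences without the library that stood apart were 0.52 ± 0.25 on chip A (adjusted p = 0.261) and 0.51 ± 0.27 on chip B (adjusted p = 0.333). From day 3 to day 5 neither set passed the test, with -0.06 (95% interval -0.61 to 0.48) on chip A and -0.41 (-0.99 to 0.16) on chip B. The 2 Cldn6 sets had a Pearson r of 0.90 over the 18 libraries.

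Sprr2b (99701_f_at), a cornified envelope precursor, passed no test against control before day 5, when it was 27.5-fold above it. It gave 83.3, 114 and 95.4 in control and 93.3, 126, 118 and 78.8 at day 1 without LIF. At day 3 it gave 146, 112 and 113, and at day 5 it gave 3554 (high gate), 2579 (medium) and 1719.7 (low). Only the day 5 libraries left the common range, and the lowest of them was 15.0-fold above the highest control. The difference from control was 0.17 ± 0.18 at day 1 (adjusted p = 0.704; 0.11 ± 0.20 without the library that stood apart), 0.47 ± 0.20 at day 3 (adjusted p = 0.126) and 4.78 ± 0.20 at day 5 (adjusted p = 7.86e-10).

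By count, none of the 6 tested probe sets differed from control at day 1, where limma called 2.06% of all 14900 tested probe sets; 3 of the 6, Krt19 and both Cldn6 sets, had an unadjusted p under 0.05. At day 3, 5 were higher against 6.53% of all probe sets called higher, and at day 5 all 6 were higher against 15.4%. Day 3 exceeded day 1 without LIF for 4 of the 6 (1.82% of all were called higher), namely Krt18, Krt19 and both Cldn6 sets. Krt8 missed with 1.42 ± 0.39 (adjusted p = 0.0529), and passed with 1.82 ± 0.27 (adjusted p = 0.000701) without the library that stood apart. In that fit Krt18 had 2.00 ± 0.22, Krt19 2.33 ± 0.23 and Cldn6 1.19 ± 0.24 and 1.17 ± 0.26, all past the test. Day 5 exceeded day 3 for 4 (9.24% of all were called higher), the keratins by 2.61 ± 0.42 (Krt8), 2.08 ± 0.35 (Krt18) and 2.95 ± 0.34 (Krt19), and Sprr2b by 4.31 ± 0.19.

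No scan day held both control and day 3 or day 5 libraries, so scan day entered as a block instead. With it as a fixed block, tied to control through scan 1 and hence through the library that stood apart, the day 5 differences from control were 5.66 ± 0.48 for Krt8, 5.49 ± 0.44 for Krt18, 5.77 ± 0.46 for Krt19 and 4.79 ± 0.38 for Sprr2b. The Cldn6 values were 1.68 ± 0.38 and 1.21 ± 0.39, and all 6 probe sets still passed the test. Scan 2 held only the day 3 libraries and those of day 1 with RA, and neither arm was on another scan day. A fixed block therefore gives no difference of day 3 from control, day 1 or day 5 without LIF. Those differences cannot be told apart from scan day, and the same holds for day 1 with RA against control. When scan day was a random block the day 3 calls of Krt8 (1.94 ± 0.53, adjusted p = 0.0659) and Krt19 (1.40 ± 0.48, adjusted p = 0.148) were lost. Their calls also depended on single libraries: Krt8 missed at day 3 without the medium-gate control (adjusted p = 0.0537) or the medium-gate day 3 library (adjusted p = 0.0514). Krt19 missed at day 3 without either high-gate control or any 1 of the 3 day 3 libraries (adjusted p from 0.0702 to 0.0984). Within scan 3, where day 5 and 3 of the day 1 libraries were read together, the day 5 libraries were higher by 4.43 ± 0.20 (Krt8), 4.07 ± 0.20 (Krt18), 5.28 ± 0.26 (Krt19) and 4.66 ± 0.20 (Sprr2b). Cldn6 was higher there by 1.13 ± 0.17 on chip A (adjusted p = 0.00237) and 0.76 ± 0.19 on chip B (adjusted p = 0.0364). Over all scans the same comparison called 5 of the 6 higher (14.2% of all probe sets were), the exception being Cldn6 on chip B with 0.64 ± 0.25 (adjusted p = 0.0874). The chip A set of Cldn6 had 1.00 ± 0.24 there, and 0.78 (adjusted p = 0.0505) without the high-gate day 5 library.

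**Figure D2:**
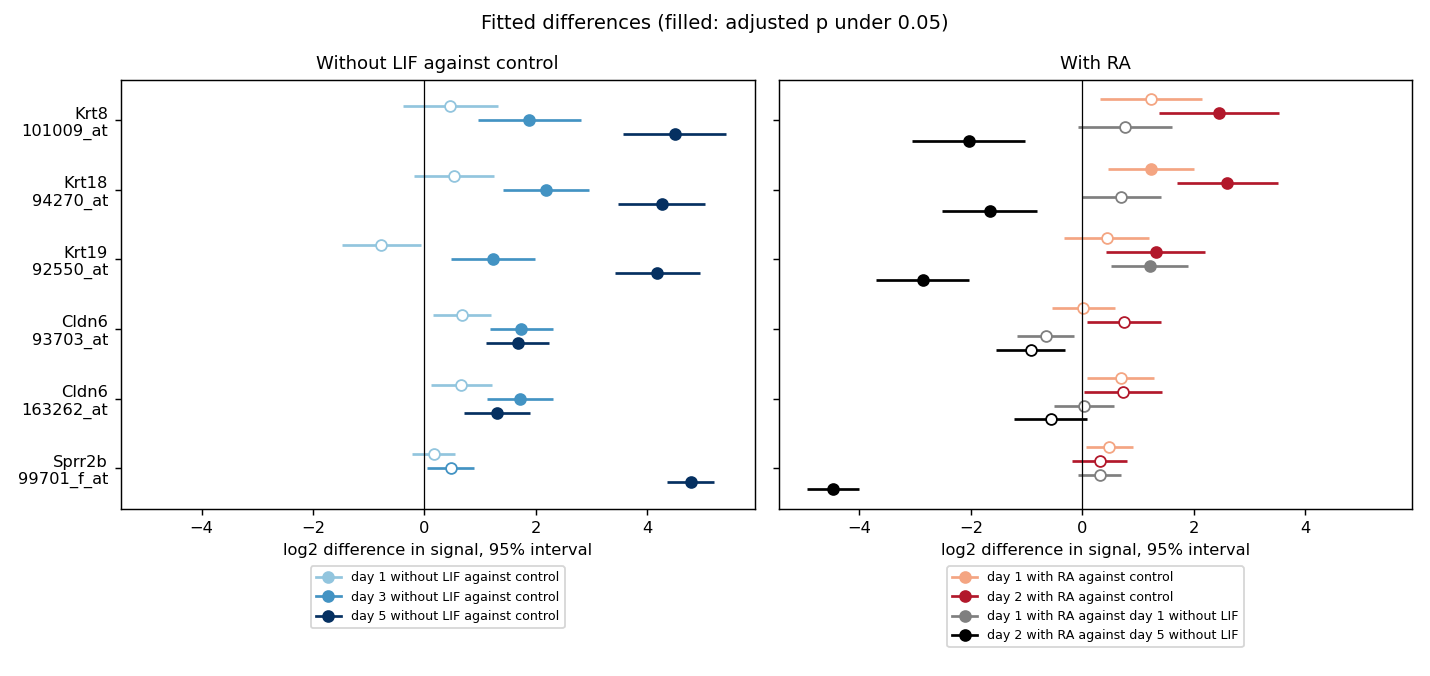
Fitted log2 differences in signal with 95% intervals for the 6 tested probe sets, without LIF against control (left) and for the RA comparisons (right), filled where the adjusted p is under 0.05. At day 5 without LIF the keratins and Sprr2b lie between 4.18 and 4.78 and Cldn6 between 1.30 and 1.67, and day 2 with RA lies below day 5 without LIF for the keratins and Sprr2b.

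Retinoic acid, a vitamin A derivative that drives stem cell differentiation through nuclear receptors, was given as LIF was withdrawn. Comparisons of these arms with control therefore include loss of LIF, and day 2 had no arm without RA at the same time. The RA arms had Krt8 and Krt18 signals above those of control but no signal of Sprr2b outside its common range. Krt8 gave 152, 385 and 252 in the high, medium and low gates at day 1 with RA, and 488 and 747 in the medium and low gates at day 2. Krt18 gave 101, 219.9 and 151 at day 1 and 295 and 587 at day 2. Every RA library of both genes lay above every control. Krt19 gave 87.4, 128 and 82.2 at day 1 with RA, overlapping control, and 163 and 215 at day 2, above it. Against control, 1 of the 6 probe sets was higher at day 1 with RA (10.7% of all probe sets were) and 3 at day 2 (8.05%). At day 1 this was Krt18 with 1.24 ± 0.36 (adjusted p = 0.0245), while Krt8 had 1.24 ± 0.43 (adjusted p = 0.0522). Krt18 missed without the high-gate replicate 1 control (adjusted p = 0.0739), without the medium-gate control (adjusted p = 0.0830) or without the medium-gate RA library (adjusted p = 0.130). At day 2 the differences were 2.46 ± 0.50 for Krt8 (adjusted p = 0.00414), 2.60 ± 0.42 for Krt18 (adjusted p = 0.00109) and 1.32 ± 0.42 for Krt19 (adjusted p = 0.0400). Leaving out the low-gate RA library moved Krt8 to 2.17 (adjusted p = 0.0530) and Krt19 to 1.00 (adjusted p = 0.268). Krt19 also missed without either high-gate control (adjusted p of 0.0864 and 0.0819) and in several other fits with 1 library left out, and had 2.85 with scan day as a fixed block. Without the library that stood apart, day 1 with RA exceeded control for Krt8 (1.15 ± 0.28, adjusted p = 0.00897) and Krt18 (1.16 ± 0.23, adjusted p = 0.00233).

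With all libraries and the gate term in the fit, Cldn6 was not called with RA against control. Its chip A signals were 94.0, 157 and 139 at day 1 with RA and 204 and 243 at day 2, and its chip B signals were 1231, 2200.1 and 1865 at day 1 and 1744 and 1821 at day 2. The day 1 libraries overlapped control on both chips, and the day 2 libraries lay above every control. This depended on the fit and on single libraries. Without the gate term, Cldn6 passed on chip A at day 2 with RA (0.88, adjusted p = 0.0299), and on chip B it passed at day 1 with RA without the high-gate RA library (1.02, adjusted p = 0.0444). Without the high-gate replicate 2 control, it passed at day 2 with RA on chip A (0.98, adjusted p = 0.0308) and chip B (0.99, adjusted p = 0.0443). It then also passed at day 1 with RA on chip B (0.97, adjusted p = 0.0231) and at day 1 without LIF on chip A (0.94, adjusted p = 0.0455). Sprr2b gave 135, 115 and 122 at day 1 and 105 and 98.0 at day 2 with RA. The day 1 libraries lay just above the highest control and the day 2 libraries within the range of control, and neither time passed the test. Its difference at day 2 was 0.31 with a 95% interval of -0.18 to 0.81.

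The direct test of RA at a matched time is day 1 with RA against day 1 without LIF. All libraries included, 1 of the 6 probe sets was higher (3.24% of all were): Krt19 by 1.21 ± 0.32 (adjusted p = 0.0353), with Krt8 at 0.77 ± 0.39 (adjusted p = 0.241) and Krt18 at 0.70 ± 0.33 (adjusted p = 0.202). Without the library that stood apart, all 3 keratins were higher with RA, Krt8 by 1.18 ± 0.27 (adjusted p = 0.00847), Krt18 by 1.05 ± 0.22 (adjusted p = 0.00481) and Krt19 by 1.54 ± 0.23 (adjusted p = 0.000533). In that fit 17.3% of all probe sets were called in either direction. Conversely, the Krt19 call was lost when any 1 of the other 6 libraries of these arms was left out (adjusted p from 0.0890 to 0.147). The log2 ratio of 3' to 5' Gapdh signal on chip A was 1.11 to 1.45 in the RA libraries and 0.684 to 0.996 at day 1 without LIF, with no overlap, and its part in these differences was not tested. The RA libraries and the day 1 libraries without LIF shared no scan day, and a random block for scan day gave Krt19 0.95 (adjusted p = 0.682), so RA and scan day cannot be told apart here. Cldn6 pointed down on chip A, with -0.66 ± 0.24 (adjusted p = 0.106), and on chip B it had 0.03 with a 95% interval of -0.51 to 0.57.

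Other contrasts with RA could be made within a scan day, at unequal times. In scan 2, day 1 with RA lay below day 3 without LIF by -1.72 ± 0.13 for Cldn6 on chip A (adjusted p = 0.00533) and by -0.94 ± 0.16 for Krt18 (adjusted p = 0.0415). Over all scans only the Cldn6 set was called (2.05% of all probe sets were called lower). In scan 3, day 2 with RA exceeded day 1 without LIF by 2.37 ± 0.23 for both Krt8 and Krt18 and by 2.39 ± 0.30 for Krt19. The fit over all scans called the same 3 keratins of 6 (4.07% of all probe sets were called higher). Day 2 with RA lay below day 5 without LIF for 4 of the 6 (4.33% of all were called lower), by -2.03 ± 0.47 for Krt8, -1.66 ± 0.40 for Krt18, -2.86 ± 0.39 for Krt19 and -4.47 ± 0.22 for Sprr2b. Within scan 3 these were -2.06, -1.71, -2.89 and -4.46, and Cldn6 on chip A joined them with -0.86 (adjusted p = 0.0391). Without the medium-gate RA library, Krt8 (-1.71, adjusted p = 0.183) and Krt18 (-1.13, adjusted p = 0.286) lost the call. Day 2 against day 1 with RA gave no call among the members (2.40% of all probe sets were called). Without the library that stood apart, Krt18 (1.29 ± 0.25, adjusted p = 0.0109) and Krt8 (1.14 ± 0.31, adjusted p = 0.0472) passed. Those times sat on different scan days.

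The eGFP gate, which sorts cells by the Oct4 reporter, gave no member past the test. Low against high gate gave 0 calls in limma among 6 members and 0% of all 14900 probe sets, of which 808 had an unadjusted p under 0.05. The keratin differences were 0.24 (95% interval -0.46 to 0.93) for Krt8, 0.33 (-0.25 to 0.92) for Krt18 and 0.03 (-0.54 to 0.61) for Krt19. Sprr2b was the member with an unadjusted p under 0.05, lower in the low gate by -0.43 ± 0.15 (unadjusted p = 0.0112, adjusted p = 0.796). For the change per day without LIF, no member passed a test of low against high gates (limma, adjusted p of about 0.999). Of 14900 probe sets, 388 had an unadjusted p under 0.05. The estimate for Krt19 was 0.33 per day. With 1 library per gate at days 3 and 5 and no low-gate control, this test had little reach and does not show equal slopes. In the high gate at day 5, the gate with the brightest reporter, Krt8 gave 2535, Krt18 1104 and Krt19 1587.

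Ordered by mean log2 signal, Krt8 ran from day 5 without LIF (11.22 ± 0.10, SD) through day 2 with RA (9.25 ± 0.43), day 3 (8.61 ± 0.37), day 1 with RA (7.97 ± 0.66) and day 1 without LIF (7.16 ± 0.82) to control (6.65 ± 0.38). Krt18 had the same order of arms. For Krt8 the arms from day 3 downwards overlapped with their neighbours, for Krt18 the overlaps were between day 2 with RA and day 3 and among the lowest 3 arms. Krt19 differed in placing day 1 without LIF last, below control, with overlap. Cldn6 placed day 3 without LIF first on both chips, with day 5 overlapping it on chip A. Sprr2b placed day 5 first with all other arms overlapping in a row.

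Sprr2b is 1 of a family of near-identical genes, so its probe set, whose suffix marks it as able to match relatives, may read others too. Of 12 Sprr2 probe sets on the chips 8 passed the filter, and 6 of these rose at day 5, each with all day 5 libraries above every other library. Of all 14900 tested probe sets, 15.4% were called higher at day 5 and 7.21% had such a gap; the Sprr2 sets were examined after their values were seen. The sets 101024_i_at and 101025_f_at, each annotated to several Sprr2 genes and so not named further, had the widest gap. The first gave 7294, 7375 and 5361 at day 5 and 10.6 to 24.5 in the 15 other libraries, a difference from control of 8.71 ± 0.23. The filter averages over all libraries, so this set, dim outside day 5, may have passed it through the day 5 libraries alone. Its call among the 6 sets that rose is therefore no separate support. The second gave 6441, 5965 and 4001 at day 5 and 21.8 to 58.6 elsewhere, a difference of 6.65 ± 0.26. Sprr2e gave 2532, 1266 and 769 at day 5 against 281 to 455 elsewhere, Sprr2i 894, 656 and 442 against 132 to 266, and Sprr2g 758, 789 and 617 against 181 to 364. Their differences from control were 2.11 ± 0.28, 1.90 ± 0.22 and 1.66 ± 0.16. Sprr2j-ps (0.64 ± 0.25, adjusted p = 0.0572) and Sprr2k (0.38 ± 0.29, adjusted p = 0.339) did not pass at day 5 against control. Within scan 3, day 5 exceeded day 1 without LIF for all 8 sets, Sprr2j-ps by 1.07 ± 0.17 (adjusted p = 0.00313) and Sprr2k by 0.66 ± 0.20 (adjusted p = 0.0373), where 30.8% of all probe sets were called in either direction. None of the 8 was called at day 3 or at day 2 with RA. At day 5, 4 of the 6 sets that rose fell in order from high to medium to low gate, Sprr2b among them, with 1 library per gate and so no test.

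**Figure D3:**
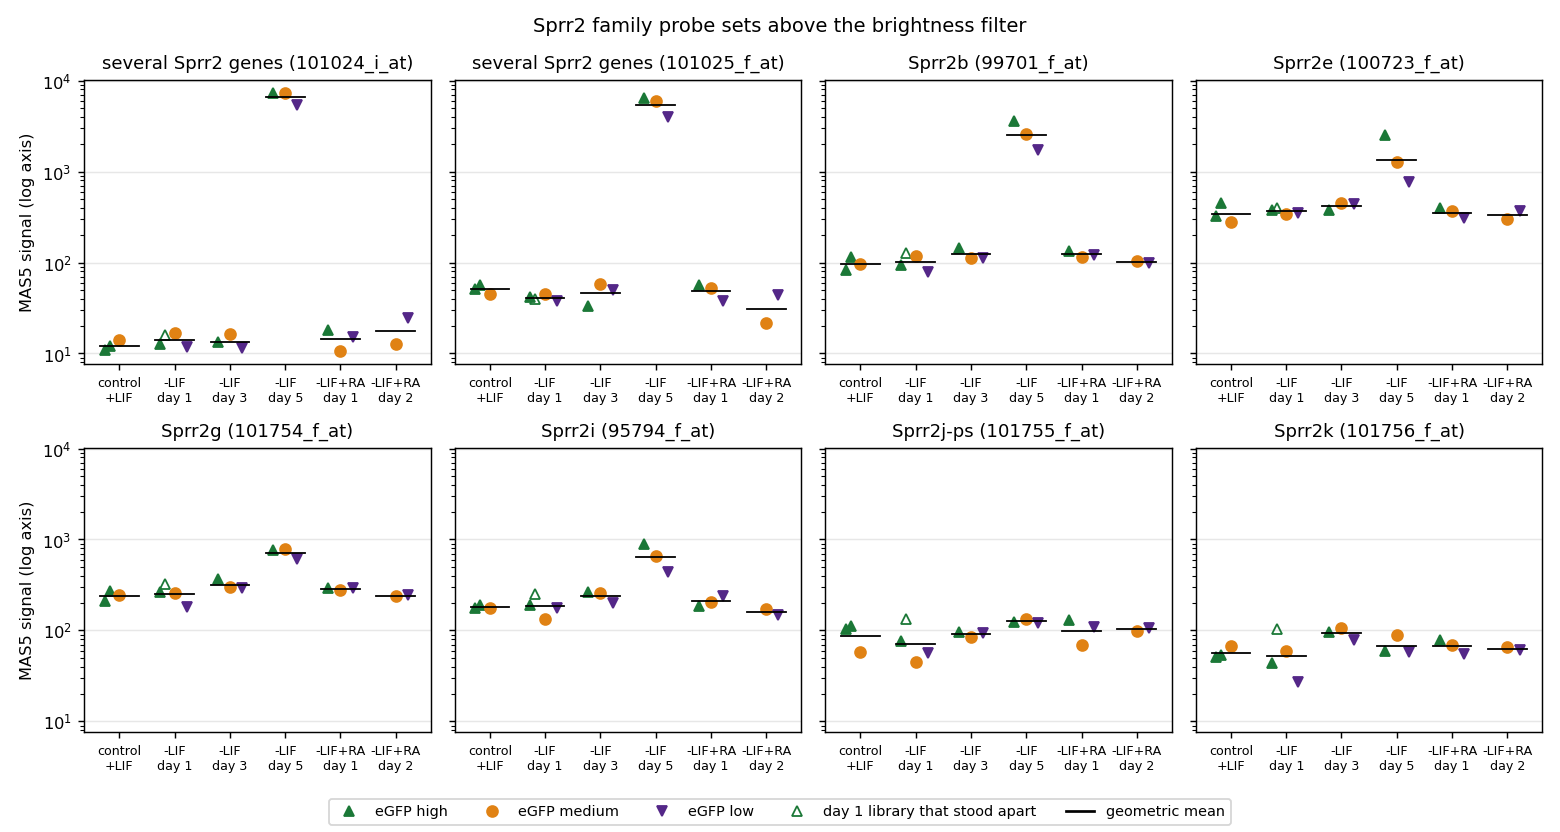
MAS5 signal (log axis) of the 8 Sprr2 family probe sets above the brightness filter in each library, by arm and eGFP gate. The day 5 libraries without LIF stand above all others in 6 panels, and Sprr2j-ps and Sprr2k overlap the other arms; signals of different probe sets are not to be compared in height.

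Other genes of the same structures moved in part. Beside each list stands the background at day 5 against control: 17.2% of 9833 genes rose and 15.2% fell, with a median log2 difference of 0.01. Of 12 measured other keratins (21 listed) 1 rose, Krt7, a simple epithelial type II keratin, by 2.42 ± 0.50 (adjusted p = 0.00176). One fell, Krt10 of the suprabasal epidermis, by -0.49 ± 0.16, and the list's median was -0.21. Krt17 (0.98 ± 0.43, adjusted p = 0.0922) and Krt71 (-0.33 ± 0.20) did not pass. Of 6 measured other claudins (18 listed) 3 rose, Cldn7 by 1.62 ± 0.28, Cldn3 by 1.35 ± 0.31 and Cldn4 by 0.93 ± 0.28, with a median of 0.44, and Cldn15 had -0.47 ± 0.18 (adjusted p = 0.0768). At day 1 with RA against day 1 without LIF none of either list passed, with Krt7 at 1.07 ± 0.45, Krt6a at 0.30, Krt10 at -0.27, Krt79 at -0.30, Cldn4 at -0.87 (adjusted p = 0.0513), Cldn7 at 0.85 (adjusted p = 0.0569), Cldn15 at -0.38 and Cldn13 at -0.30. With RA at day 2, none of the other keratins and none of the other claudins passed (8.79% of all genes rose and 8.40% fell).

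Among tight junction scaffold and polarity genes, 4 of 15 measured rose and 2 fell (median 0.33). The scaffold Tjp1 rose by 1.06 ± 0.18, the polarity adaptor Mpp5 by 1.08 ± 0.20 and the tricellular junction protein Marveld2 by 1.00 ± 0.19, whereas the adhesion molecule Jam2 fell by 3.76 on the log2 scale (SE 0.43). Among adherens junction genes 2 of 9 rose and 1 fell (median 0.28), Vcl, which links junctions to actin, by 1.31 ± 0.23 and Nectin2 by 0.62 ± 0.20, with Epcam at -0.47 ± 0.13 falling. Ctnnd1 had 0.41 ± 0.17 (adjusted p = 0.0720) and the epithelial cadherin Cdh1 0.14 ± 0.20 (adjusted p = 0.634), the latter named after its value was seen. Desmosomes, the junctions that anchor keratin filaments, had 6 of 12 measured genes higher and 1 lower (median 0.41). They included the desmosomal cadherin Dsc2 at 4.66 ± 0.56, the keratin anchor Dsp at 3.32 ± 0.48, Perp at 2.14 ± 0.37 and Dsg2 at 1.13 ± 0.21. At day 2 with RA, Dsc2 was the desmosomal gene that passed, with 2.45.

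Of 10 measured genes of the cornified envelope and late barrier (24 listed) 4 rose, Sprr2e, Sprr2i and Sprr2g as above and Sprr1a by 1.31 ± 0.46 (adjusted p = 0.0385), with a median of 0.51. The sets of Sprr2e, Sprr2i and Sprr2g carry the same suffix as that of Sprr2b. They may therefore read the same transcripts and are not independent counts. Of the regulators of epithelial fate, none of 9 measured rose and 1 fell, Klf5 at -0.59 ± 0.22 (adjusted p = 0.0475), with a median of -0.23. Tfap2c had -0.71 ± 0.32, Grhl1 -0.89 ± 0.42 and Elf3 -0.45 ± 0.25, none past the test. Of 6 measured mesenchymal genes (10 listed) 5 rose at the same time, with a median of 1.20. Among them were the neural cadherin Cdh2 with 4.65 ± 0.39, Twist1 with 2.44 ± 0.37, Nes with 1.45 ± 0.29 and Snai2 with 0.96 ± 0.21. Vim, the mesenchymal intermediate filament of that list, stayed dim, between 13.4 and 35.2 in all 18 libraries (101046_at).

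**Figure D4:**
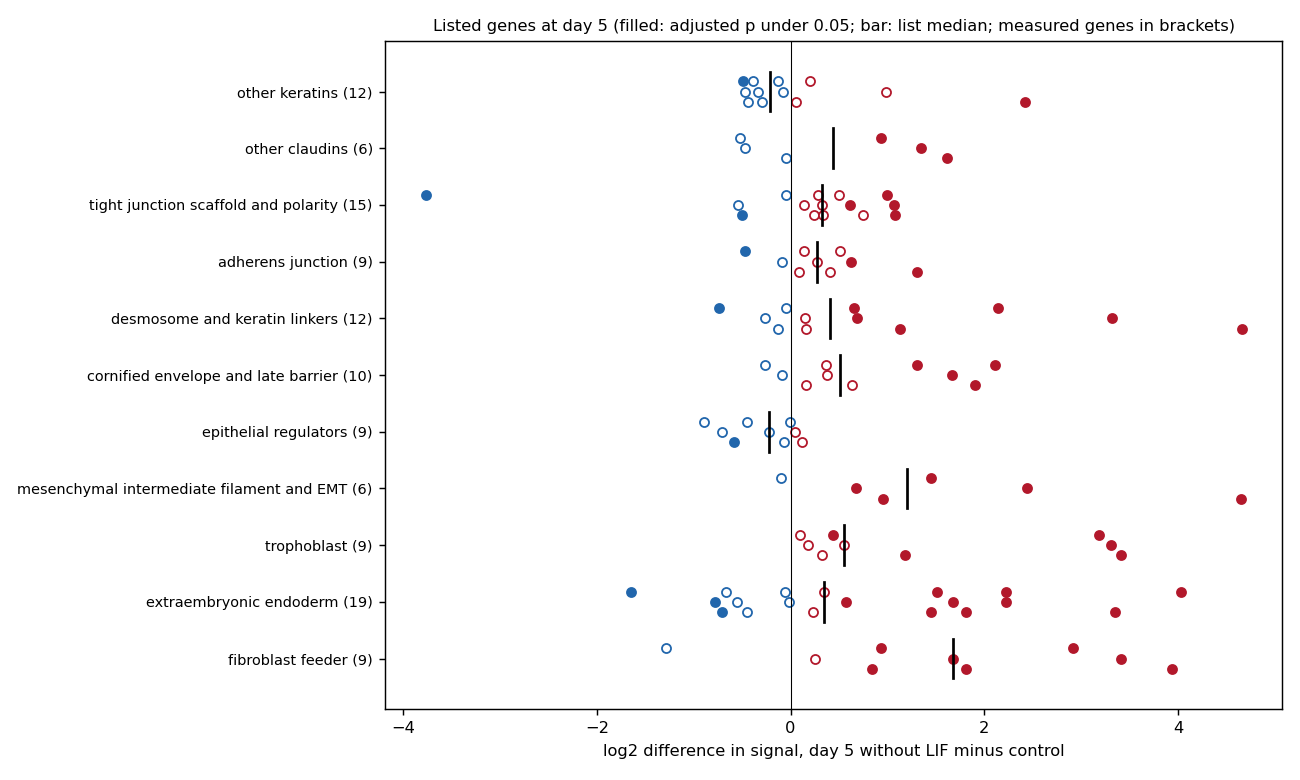
Log2 difference in signal between day 5 without LIF and control for each measured gene of 11 lists, filled where the adjusted p is under 0.05, with a bar at the list's median. Desmosomal genes reach 4.66 and other keratins centre on -0.21.

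Markers of other cells that express keratins or could be carried over moved in part: the summed trophoblast and fibroblast signals were higher at day 5 than in control, and the summed extraembryonic endoderm signal at day 5 lay within the range of control. Of 9 measured trophoblast genes 5 rose at day 5 (median 0.55), among them Cited1 by 3.31 ± 0.23, Eomes by 3.18 ± 0.44, Igf2 by 3.41 ± 0.51 and Hand1 by 1.19 ± 0.37. The summed signal of the 15 trophoblast genes on the chips was 580.0 to 779.5 in control, 571 to 1293 at day 1, 916 to 1286 at day 3 and 2809 to 4973 at day 5. It was 845 to 1372 and 2169 to 3085 at days 1 and 2 with RA. Of the trophoblast list, Cdx2 (2.39 to 15.8), Elf5 (0.763 to 9.33) and Tpbpa (3.30 to 21.7) were near the floor in all 18 libraries. These were named after their values were seen. Of 19 measured extraembryonic endoderm genes 9 rose and 3 fell (median 0.35), with Fst at 4.03 ± 0.42, Pdgfra at 3.35 ± 0.40, Sparc at 1.51 ± 0.21 and Col4a2 at 1.68 ± 0.24. Their summed signal over 22 genes was 4826 to 5649.8 in control and 5223 to 5370.3 at day 5, and ran between 2959 and 7162 over the other arms. The visceral endoderm products Afp (2.40 to 16.6 and 10.7 to 36.3 for its sets) and Ttr (6.31 to 41.1) stayed low. Of the same list, the Gata4 sets ran from 66.4 to 176 (102713_at) and from 8.29 to 252 (104848_at) over all 18 libraries. The Gata6 sets ran from 14.0 to 49.0, 3.91 to 20.6 and 10.2 to 28.6.

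Of 9 measured fibroblast genes 7 rose at day 5 (median 1.68), with Col5a1 at 1.68 ± 0.15, Dcn at 3.41 ± 0.38, Tagln at 3.94 ± 0.56 and Cald1 at 2.91 ± 0.40. Their summed signal over 14 genes was 800.3 to 902 in control, 855 to 1722 at day 1, 1818 to 2178 at day 3, 3113 to 3192 at day 5, 1425 to 1879 at day 1 with RA and 2667 to 4018 at day 2 with RA. At day 1 without LIF the upper ends of the trophoblast and fibroblast ranges, 1293 and 1722, came from the library that stood apart. Of the Col1a2 sets, 101130_at lay between 2.53 and 13.03 throughout and 161156_r_at between 224 and 341. The Col1a1 sets ran from 48.1 to 190 (103709_at) and from 2.17 to 41.5 (94305_at). The keratins of stratified epithelium Krt5 (4.67 to 22.1) and Krt14 (3.81 to 31.8) and their regulator Trp63 (15.4 to 43.2) were low in every library. The part of these cell types in the members' changes was not tested.

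The genes whose log2 signals ran closest to each member over the 18 libraries are given as a description, since the libraries share arms and scan days. For Krt8 they were Maged2, B2m, Anxa5, Gbp2 and Septin8 (r from 0.97 to 0.98), and for Krt18 they were Phldb2, B2m, App, Gpx8 and Gbp2 (0.96 to 0.97). B2m, the light chain of class I major histocompatibility molecules, rose by 3.76 ± 0.36 at day 5 and Gbp2, an interferon-inducible GTPase, by 6.96 ± 0.37. For Krt19 they were Pqlc3, Pdgfrl, Septin8, Osbpl5 and Mfsd1 (0.96 to 0.97). For Sprr2b they were Ttyh1, Tmprss2, Tmem185a, Litaf and Susd4 (0.97 to 0.99), which had differences of 1.97 to 3.25 at day 5 and, as Sprr2b, did not pass at day 3. This shared course, like the day 5 rises of B2m and Gbp2, follows from choosing genes by r and is no separate support. Tmprss2, a membrane serine protease of epithelia, gave 85.7 to 169 at day 5 (103974_at) and 13.1 to 24.4 in the other arms. As it was dim outside day 5, it may have met the brightness filter through the day 5 libraries alone. Cldn6 ran closest to Hgsnat, Cdc42se1, 5031439G07Rik, Atp6v0b and Rrad on chip A (0.86 to 0.88) and to Pls3, Rrad, Pphln1, Has2 and Serinc5 on chip B (0.88 to 0.94). Between members, r was 0.94 for Krt8 with Krt19 and 0.82 for Krt8 with Sprr2b, and it was 0.54 and 0.40 for Sprr2b with the Cldn6 sets.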

How the data were processed

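RNA of 18 sorted libraries was read on chips A and B, 36 arrays in all. The deposited signal values are probe set intensities on a linear scale, made with MAS5 and scaled to a common trimmed mean, per the submitters' processing notes; no version of MAS5 was stated there. From them log2(signal + 4) on chip A and log2(signal + 7) on chip B were fitted with limma 3.58.1 (R 4.3.3), with arm and gate as terms, on the 60% of probe sets brightest on average over all libraries, tested on simulated data first. P-values were adjusted by Benjamini-Hochberg within each chip. In the gene lists a gene with several probe sets was taken by 1 set with a single symbol, chip A before chip B, then the brightest. The text names all members, up to 4 genes of each list by smallest p at day 5 against control (for other keratins and claudins also at day 1 with RA against day 1 without LIF), Pou5f1, and the 5 genes nearest to each member by Pearson r. Cdh1 and further markers given only as signal ranges were named after their values were seen. These markers are Vim, Cdx2, Elf5, Tpbpa, Afp, Ttr, Gata4, Gata6, Col1a1, Col1a2, Krt5, Krt14 and Trp63. Members and lists were chosen with earlier results of these data known. The comparisons against control share the same 3 control libraries. Alternatives were other constants, no filter, quantile scaling, no gate term, scan day as a block (statmod 1.5.0), single scan days and each library left out; the comparisons of day 3 with days 1 and 5 and with RA, of day 2 with RA with day 1 without LIF, and between the RA days were added after seeing the data. The number of arrays limits the precision.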

Additional observations from a re-analysis of the deposited data

Results flagged for a closer look

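The second Krt19 probe set (102121_f_at) lay below the brightness filter and so was tested above only in the fit without the filter. Its lowest day 5 library without LIF, at 85.54, stood above every control library, of which the highest was 7.70. In the arm of 4 libraries, Dixon's ratio of gap to range marked no library as an outlier for any of the 8 member probe sets, the day 1 library doubted for its run record included; chance alone marks about 1 in 20 such groups.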

How the results depend on the processing

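At day 5 without LIF against control all 6 member probe sets passed under every alternative run. Over all comparisons, calls of members held in 429 fits with 1 library left out and were lost in 33, and under the other alternatives they held in 174 and were lost in 7. Results not called gained a call in 24 and 13 such fits, and signs turned in 26 and 8; where no cause is given, the cause was not tested.

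Of all probe sets at day 1 without LIF against control, 307 were called, against 101 without the filter, 535 and 72 with scan day as a fixed or random block and 478 without the gate term. A random block left 387 of 1716 calls at day 3 (3 members in place of 5), 942 of 2908 at day 1 with RA against control (0 members in place of 1) and 4 of 972 between the day 1 arms with and without RA (0 members in place of 1). Without the filter, day 1 with RA against day 1 without LIF had 380 calls, with 0 members. At day 1 with RA against control, 2 members passed with the larger constant and 2 without the gate term. Day 2 with RA against day 5 had 1866 calls with a fixed block in place of 1216. Within scan 2, day 1 with RA against day 3 had 245 calls in place of 644, and 2 members. Within scan 3, day 2 with RA against day 1 without LIF had 1863 in place of 1176.

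Signs of members turned only for differences not called in the main fit, and not all of these were small. With scan day as a fixed block, Krt19 had 0.48 at day 1 without LIF, against -0.77 in the main fit. The gate difference in slope was then -0.18 for Krt8, -0.055 for Krt18, -0.16 for Krt19 and -0.13 for Sprr2b. Cldn6 on chip A at day 1 with RA against control had -0.029 with quantile scaling and -0.032 with a random block, and Krt19 between gates had -0.12 over arms holding all 3 gates.

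With each library left out in turn, calls ran from 44 to 472 at day 1, 871 to 2264 at day 3, 1686 to 3431 and 852 to 2694 at days 1 and 2 with RA, all against control. They ran from 149 to 2571 between the day 1 arms with and without RA, 375 to 1684 for day 2 with RA against day 5, and 0 to 1 between gates. Members called ran from 0 to 1, 3 to 5, 0 to 3, 1 to 4, 0 to 3 and 2 to 5 in the same order up to day 5. Without the library that stood apart, the comparisons added later had 2218 calls (day 3 against day 1), 1156 and 4 members (day 1 with RA against day 3), 745 and 2 members (between RA days), and 2668 (day 2 with RA against day 1 without LIF). Differences ran from -0.025 to 0.76 for Krt8 at day 1, -0.18 to 0.27 for Cldn6 on chip A at day 1 with RA against control, and -0.19 to 0.33 for Cldn6 on chip B against day 1 without LIF. Between gates they ran from -0.13 to 0.25 for Krt19 and -0.11 to 0.13 for Cldn6 on chip B. The slope difference ran from -0.043 to 0.52 for Krt8, -0.60 to 0.21 and -0.59 to 0.21 for Cldn6, and -0.66 to 1.03 for Sprr2b.

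The high gate had replicates 1 and 2 in both control and day 1 without LIF, and neither the plain fit nor one with replicate number as a block called any probe set in limma (768 had an unadjusted p under 0.05 in the plain fit). Krt8 had 0.65 in both, and deviations of same-numbered libraries correlated at 0.17 on chip A and 0.11 on chip B over 2 pairs. Both replicate 2 libraries were scanned on the same day and the replicate 1 libraries on different days, and no label says that the numbers mark pairs, so the block is given as an alternative only. With 1 library left out this comparison gave 0 to 387 calls and 0 to 2 members, assuming the lone library varies like the others. Krt8 then ran from -0.32 to 1.61, Krt18 from -0.022 to 1.58, Krt19 from -1.31 to 0.42 and Sprr2b from -0.076 to 0.36. Dim probe sets, such as the second sets of Krt18 and Krt19, limit what signal over background can show.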
